A study of Mus musculus with 8 samples.

Results

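The angiopoietin and Tie receptor genes were examined in ventricular RNA of mouse embryos at E10.5. The 6 genes were the ligands Angpt1 and Angpt2, the receptors Tek and Tie1, and the receptor phosphatases Ptprb and Ptprm, of 55291 gene symbols in the count table. All 6 passed the filter on low counts and were among the 26820 genes tested. The ligands and receptors were chosen by name, with earlier results of these data known, and so were the gene lists used below. Ptprb and Ptprm were picked because they differed between the groups in these same libraries, so their differences are given as a description without a test. The cKO group held 4 libraries from Pkn2 fl/fl embryos that carried XMLC2-Cre, and the control group held 4 libraries from Pkn2 fl/fl littermates without Cre. All embryos thus carried the floxed Pkn2 alleles, on a C57BL/6N background, and received no further treatment. XMLC2-Cre is a cardiomyocyte driver, whereas the RNA came from all cells of the tissue. Because the controls lacked Cre, the presence of Cre and the loss of Pkn2 cannot be told apart.

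The ligands and receptors form the signalling system through which endothelial cells of vessels and of the endocardium are stabilised and remodelled. Angpt1 is an agonist of the receptor tyrosine kinase Tek (Tie2) and is made by cells next to the endothelium, including the myocardium and mural cells. Angpt2 is made largely by endothelial cells and acts as an antagonist or a weak agonist, depending on context. Tie1 binds no angiopoietin by itself with high affinity and modulates Tek within receptor complexes. Ptprb (VE-PTP) is an endothelial phosphatase that removes phosphate from Tek and from the VE-cadherin complex, and Ptprm is a phosphatase that binds itself between neighbouring cells at their junctions. In the developing heart the pathway is known for its role in the endocardium and in trabeculation.

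Libraries held 47559845 to 56660938 counts. Pkn2 itself, in CPM (read counts per 1000000 of the TMM-corrected library total), averaged 81.2 ± 3.07 in cKO (SD, n = 4) and 144 ± 9.85 CPM in control libraries, a log2 fold change of −0.83 (edgeR adjusted p = 7.67e-06). Across all genes tested, 0.858% passed the adjusted p of 0.05, with 0.515% higher and 0.343% lower in cKO. The groups did not overlap for 3.14% of the genes tested with cKO on top and for 3.77% with cKO below. With a fold change of at least 1.5 as well, 0.265% passed as higher and 0.101% as lower. The median log2 fold change was −0.00085, and 49.8% of the genes tested lay above 0. An unadjusted edgeR p under 0.05 was reached by 3436 of the 26820 genes. The 10 cardiomyocyte markers summed to 24850 to 27070 CPM in cKO and 23810 to 26520 CPM in control libraries, so cardiomyocyte RNA was abundant in every library.

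The receptors were the most abundant members and Angpt2 the least. On the TPM scale, which divides by transcript length and so permits comparison between genes, the mean levels in control libraries were 70.4 ± 7.54 for Tie1, 69.1 ± 3.52 for Tek, 51.5 ± 1.51 for Angpt1, 11.5 ± 1.84 for Ptprm, 7.34 ± 0.988 for Ptprb and 1.84 ± 0.187 for Angpt2 (SD, n = 4). The order was the same in cKO libraries, at 95.1 ± 15.3, 80.8 ± 5.31, 54.1 ± 6.42, 21.4 ± 5.90, 11.9 ± 3.61 and 2.03 ± 0.281 TPM. Tie1 and Tek, the neighbours at the top, overlapped in both groups, with Tie1 above Tek in 4 of 4 cKO but only 2 of 4 control libraries. Ptprm lay above Ptprb in each library, yet their ranges overlapped in cKO. The other neighbours in the order did not overlap in either group.

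**Figure D1:**
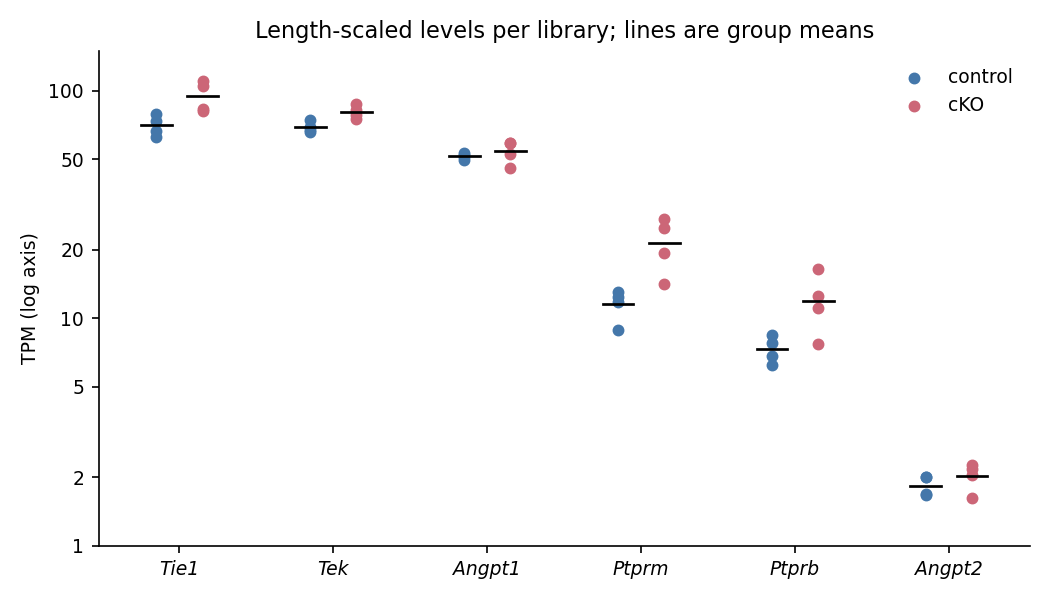
Level of each member in TPM (log axis) in each of the 4 cKO and 4 control libraries, with lines for the group means and the genes in order of their level. Tie1, Tek and Angpt1 lie between 45.6 and 111 TPM in all libraries, Ptprm and Ptprb between 6.24 and 27.3 TPM, and Angpt2 between 1.62 and 2.26 TPM.

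Tie1 rose 1.33-fold in cKO ventricles, and Tek was higher by a smaller amount that did not pass the test. Tie1 (ENSMUSG00000033191; GRCm38 chr4:118471191-118490061, minus strand) was at 242.8, 190.0, 195.0 and 258.5 CPM in cKO replicates 1 to 4 and at 176.3, 179.3, 148.5 and 162.0 CPM in control replicates 1 to 4. The lowest cKO value exceeded the highest control value, and cKO replicates 1 and 4 stood out at the top. The mean was 221.6 ± 34.2 CPM in cKO against 166.5 ± 14.2 CPM in control (SD, n = 4), a log2 fold change of 0.41 with a standard error of 0.092 (edgeR quasi-likelihood test, adjusted p = 0.0477; 95% interval of the fold change 1.16 to 1.52, not adjusted for the number of genes). The call was near the threshold. It was kept without cKO replicate 2 (adjusted p = 0.0196) or cKO replicate 3 (0.0156), and it was lost, at adjusted p from 0.0650 to 0.164, without cKO replicate 1 or 4 or any 1 control replicate.

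Tek (ENSMUSG00000006386; GRCm38 chr4:94739289-94874976, plus strand) was at 212.2, 182.6, 193.7 and 196.0 CPM in cKO and at 169.0, 177.0, 166.2 and 175.5 CPM in control replicates 1 to 4. The groups did not overlap, with the lowest cKO library only slightly above the highest control library. The means were 196.1 ± 12.2 CPM and 171.9 ± 5.17 CPM, the log2 difference was 0.19 with a standard error of 0.057, and edgeR gave an adjusted p of 0.135 (unadjusted p = 0.00428; 95% interval of the fold change 1.05 to 1.24). DESeq2 placed Tek past the threshold (adjusted p = 0.0218). Of the 4 members chosen by name, 1 therefore passed the adjusted p and none passed it together with a fold change of at least 1.5, against 0.515% and 0.265% of all genes tested in the same direction, and 2 of 4 had groups without overlap, against 3.14%. DESeq2 called 2 of the 4 and limma-voom none. Over the whole table these tools called 867 and 168 genes in either direction, against 230 by edgeR, to which the percentages above refer.

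Stretches upstream of the start sites of Tek, Tie1 and Ptprm are shown because these are the members matched in the RefSeq promoter table (3 of 6, GRCm38.p6). Of the 250 bases before each RefSeq start site, only those that lie before the gene in both the deposited positions and RefSeq are given, at chr4:94739039-94739085 (plus strand) for Tek, chr4:118490062-118490099 (minus strand) for Tie1 and chr17:67354492-67354709 (minus strand) for Ptprm. The bases left out, which 1 of the annotations places inside the gene, number 203, 212 and 32. They are the ones next to that RefSeq start site, and they were not searched in these 3 genes. Each printed stretch is written 5′ to 3′ on the strand of its gene, and capitals mark GGAAG or its reverse complement CTTCC, the core letters bound by ETS factors, many of which act in endothelial cells.
Tek: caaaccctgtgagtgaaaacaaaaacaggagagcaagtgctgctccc
Tie1: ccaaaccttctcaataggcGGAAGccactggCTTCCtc
Ptprm: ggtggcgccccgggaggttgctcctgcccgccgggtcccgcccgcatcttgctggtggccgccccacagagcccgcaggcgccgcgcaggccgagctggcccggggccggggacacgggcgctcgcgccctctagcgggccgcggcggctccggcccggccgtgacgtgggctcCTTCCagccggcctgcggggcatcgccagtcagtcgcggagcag
The 3 stretches differed in these letters. Tie1 held 2 matches in 38 bases, a number reached by 1.01% of 32851 promoters in the window of the same length and place. Ptprm held 1 match in 218 bases, as 58.3% of promoters do at least, and the letters did not occur in the 47 bases of Tek, where 15.6% of promoters hold them. Tek held 2 matches of AAACA or TGTTT, the forkhead-type letters, which 1.65% of promoters reach in such a window, while GATAA or TTATC occurred in none of the 3 windows (4.30% to 20.4% of promoters). The GC content was 48.9% for Tek, 55.3% for Tie1 and 80.3% for Ptprm. A match of this kind describes the sequence and is not evidence of binding.

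The ligands did not pass the test in either direction. Angpt1 (ENSMUSG00000022309; GRCm38 chr15:42424723-42676977, minus strand) was at 114.7, 103.0, 120.2 and 89.49 CPM in cKO and at 103.5, 99.66, 107.8 and 106.7 CPM in control replicates 1 to 4. The cKO libraries spread to both sides of the controls, with replicates 1 and 3 above all of them and replicate 4 below. The log2 difference was 0.03 with a standard error of 0.077 (edgeR adjusted p = 0.926; 95% interval of the fold change 0.914 to 1.14), and it was −0.03 without cKO replicate 3. Relative to the mean log2 CPM of the 10 cardiomyocyte markers, Angpt1 stood at −3.93 ± 0.187 in cKO and −3.98 ± 0.071 in control (SD, n = 4; two-sided exact permutation test, p = 0.629, adjusted p = 0.629 over 6 ratio tests), a difference of 0.05 that was −0.0085 without cKO replicate 3 and 0.13 without cKO replicate 4.

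Angpt2 (ENSMUSG00000031465; GRCm38 chr8:18690263-18741562, minus strand) rested on 164 to 253 counts per library. It was at 4.13, 3.41, 4.89 and 4.52 CPM in cKO and at 3.51, 3.49, 4.20 and 4.35 CPM in control replicates 1 to 4. The groups overlapped, and cKO replicate 2 was the lowest of all 8 libraries. The log2 difference was 0.12 with a standard error of 0.151 (edgeR adjusted p = 0.814; 95% interval of the fold change 0.873 to 1.36). Angpt2 lies inside Mcph1, which runs on the other strand and held 12022 counts over the 8 libraries. The kit does not mark strand and the counting tool's setting is not given in the sources used here, so reads of the shared stretch cannot be told apart.

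Angpt1 transcripts outnumbered those of Angpt2 in each library of both groups. On the TPM scale Angpt1 was 27.1 ± 4.82 times as high as Angpt2 in cKO (range 21.0 to 32.5) and 28.2 ± 2.71 times as high in control libraries (range 25.5 to 31.4). The log2 CPM ratio of Angpt2 to Angpt1 was −4.65 ± 0.263 in cKO and −4.74 ± 0.124 in control, a difference of 0.09 (two-sided exact permutation test, p = 0.571, adjusted p = 0.629 over 6 ratio tests), which was −0.024 without cKO replicate 4, 0.18 without cKO replicate 2 and 0.051 without control replicate 1. The smallest p that 4 against 4 libraries can give is 0.0286, and a single ratio with it would reach an adjusted p of 0.171. The adjusted values could thus pass only if several ratios reached that p together.

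The receptors were compared in the same way. The TPM ratio of Tie1 to Tek was 1.20, 1.10, 1.04 and 1.35 in cKO and 1.09, 1.07, 0.943 and 0.964 in control replicates 1 to 4. The groups overlapped, since cKO replicate 3 lay below control replicates 1 and 2. The log2 CPM ratio differed by 0.21 (two-sided exact permutation test, p = 0.143, adjusted p = 0.400), and by 0.14 without cKO replicate 4.

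Both phosphatases, which were picked for this difference, were higher in cKO. Ptprb (ENSMUSG00000020154; GRCm38 chr10:116275550-116389535, plus strand) was at 91.1, 64.7, 50.3 and 71.3 CPM in cKO and at 37.4, 48.5, 46.6 and 45.6 CPM in control replicates 1 to 4. In CPM the cKO libraries all lay above the controls, replicate 1 farthest and replicate 3 just above control replicate 2. In TPM the groups overlapped, because cKO replicate 3, at 7.73 TPM, fell below control replicates 2 and 3, at 8.47 and 7.79 TPM. The mean was 69.4 ± 17.0 CPM in cKO against 44.5 ± 4.89 CPM in control (SD, n = 4), a log2 fold change of 0.64 with a standard error of 0.131, which ranged from 0.49 to 0.77 as each library was left out.

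Ptprm (ENSMUSG00000033278; GRCm38 chr17:66666947-67354457, minus strand) showed the widest gap of the members. It was at 73.8, 52.9, 40.2 and 69.3 CPM in cKO and at 36.5, 35.5, 25.1 and 34.9 CPM in control replicates 1 to 4. All cKO libraries lay above all controls, in CPM and in TPM, with cKO replicate 3 the nearest to them and control replicate 3 the lowest. The mean was 59.0 ± 15.4 CPM in cKO against 33.0 ± 5.31 CPM in control, a log2 fold change of 0.84 with a standard error of 0.153. The fold change of both phosphatases was above 1.5, and their values chose them, so nothing is read from their count.

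**Figure D2:**
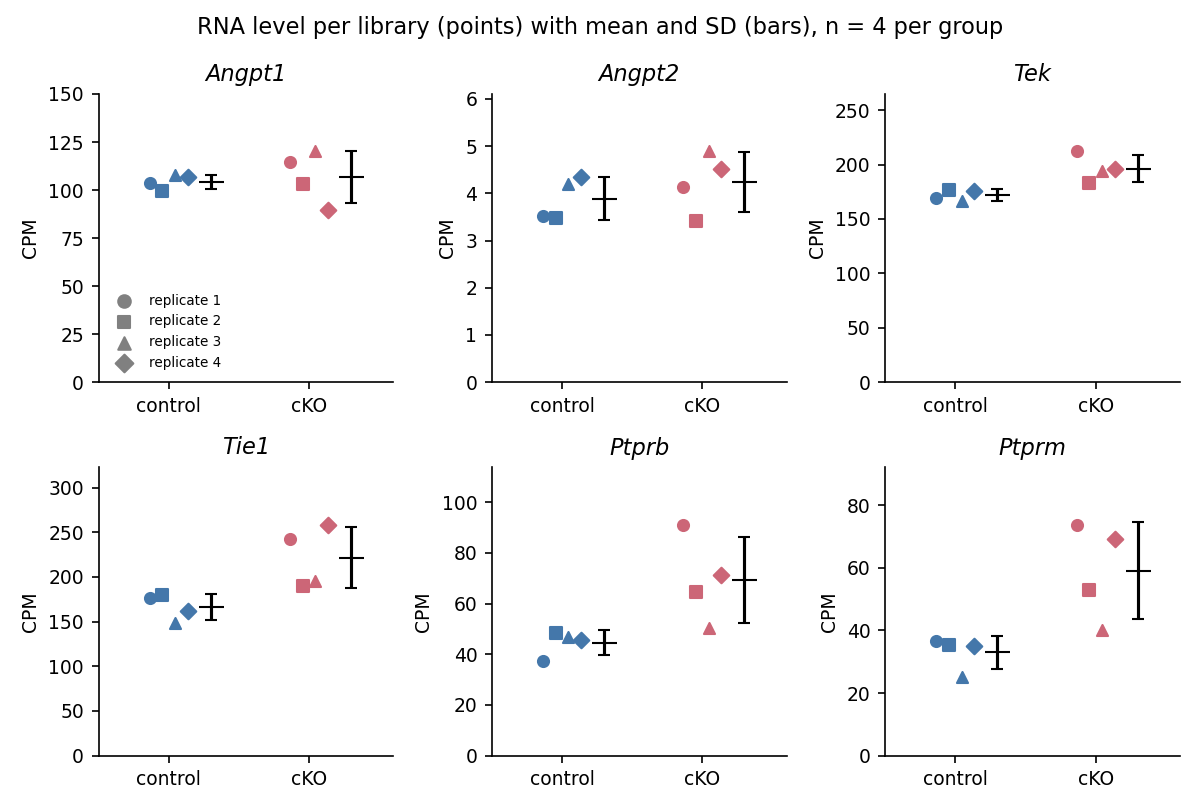
CPM of each member in the 4 cKO and 4 control libraries, 1 panel a gene with its own axis, points as libraries and bars as the mean with the SD. For Tek, Tie1, Ptprb and Ptprm every cKO point lies above every control point, and for Angpt1 and Angpt2 the groups overlap.

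Endothelial and endocardial markers moved with the receptors and phosphatases. All 12 markers chosen for this cell type had log2 fold changes above 0, against 49.8% of all genes tested, and their median was 0.37. The list was set with earlier results of these data known. Of the 12, 5 passed the adjusted p as higher, against 0.515% of all genes tested: Emcn (0.72, adjusted p = 0.0177), Nfatc1 (0.36, 0.0262), Cdh5 (0.53, 0.0303), Pecam1 (0.48, 0.0404) and Flt1 (0.50, 0.0484), all by edgeR's quasi-likelihood test. Cdh5 encodes VE-cadherin, Pecam1 and Emcn encode endothelial surface proteins, Flt1 encodes a VEGF receptor, and Nfatc1 marks the endocardium. The summed level of the 12 was 1636 to 2104 CPM in cKO and 1280 to 1546 CPM in control libraries, and no marker was at 0 in any library. Groups without overlap, with cKO on top, were found for 7 of 12, against 3.14% of all genes tested. The number past the threshold was 7, 8 and 2 without cKO replicates 2, 3 and 4, and 0 without cKO replicate 1 or any 1 control replicate. It was 10 with DESeq2, 3 with limma-voom, which did not call Pecam1 and Flt1, 3 with filterByExpr and 0 in the limma fits of TPM. DESeq2 called 867 genes over the whole table, against 230 by edgeR. In bulk tissue, more cells of a type and more RNA per cell cannot be told apart.

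Measured against these markers, the differences of Tie1, Tek and Angpt2 pointed below 0, with unadjusted p above 0.05. The mean log2 CPM of the 12 markers, relative to the control mean, was 0.61, 0.27, 0.19 and 0.68 in cKO replicates 1 to 4, and Tie1 on the same scale was 0.55, 0.19, 0.23 and 0.64. The highest and the lowest cKO libraries were thus the same pairs for the receptor and for the markers. Tie1 relative to the markers was 1.15 ± 0.0536 in cKO and 1.19 ± 0.0851 in control, a log2 difference of −0.03 (two-sided exact permutation test, p = 0.514, adjusted p = 0.629), which ranged from −0.0087 (without control replicate 2) to −0.074 (without control replicate 4) and became 0.03 when the low-count marker Cldn5 was left out.

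Tek was higher by less than the mean of the markers, at 0.99 ± 0.202 relative to it in cKO and 1.24 ± 0.097 in control. That difference was −0.25 (two-sided exact permutation test, p = 0.0857, adjusted p = 0.400). It was −0.18 when the low-count marker Cldn5 was left out and −0.17 without cKO replicate 4. Single markers varied, since the log2 fold changes of Npr3 (0.12) and Plvap (0.15) were below that of Tek (0.19) and those of the other markers were above it. Angpt2 relative to the markers was −4.54 ± 0.314 and −4.22 ± 0.239, a difference of −0.32 (exact permutation test, p = 0.200, adjusted p = 0.400). Ptprb and Ptprm stood above the markers' own shift by 0.18 and 0.38 on the log2 scale, with no test. Both were picked for a difference in these libraries, which favours such an excess, so nothing is read from it. For Ptprm the values were −0.60, −0.73, −1.05 and −0.76 in cKO and −1.06, −1.08, −1.36 and −1.15 in control replicates 1 to 4, so the groups met within rounding without overlapping, and those of Ptprb overlapped. As each marker was left out in turn, the difference ranged from 0.15 to 0.24 for Ptprb and from 0.35 to 0.44 for Ptprm. With a library left out it ranged from 0.075 (without control replicate 1) to 0.26 for Ptprb, and was 0.093 without cKO replicate 1, and from 0.31 to 0.47 for Ptprm. Whether the amount of endothelial RNA had a part in the raised phosphatase levels was not tested.

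**Figure D3:**
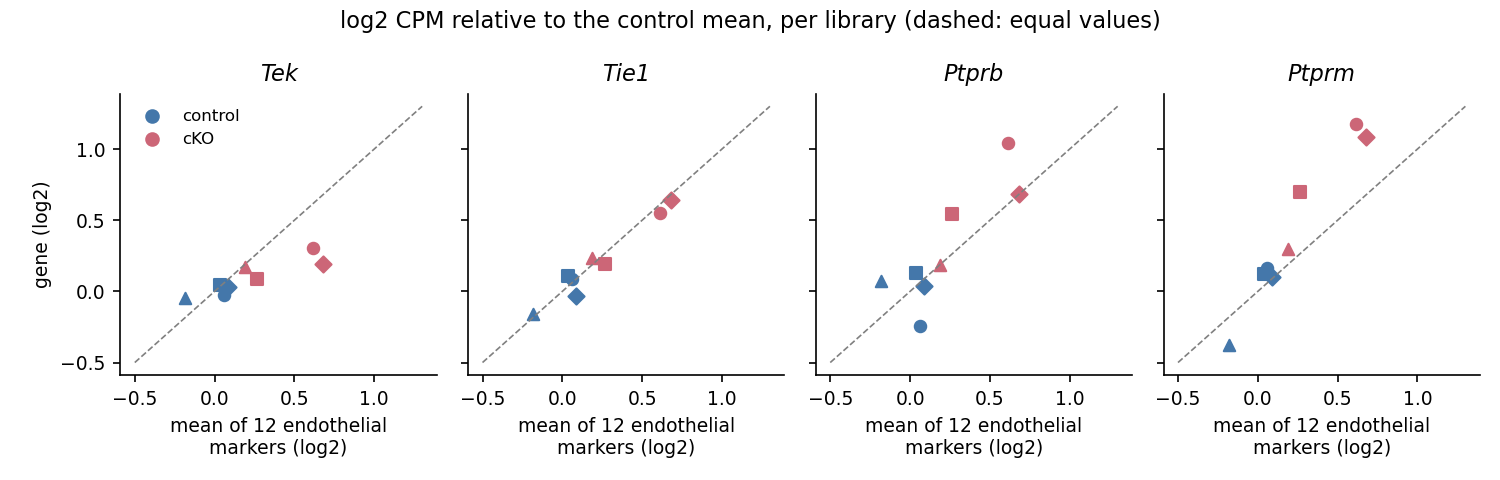
Log2 CPM of Tek, Tie1, Ptprb and Ptprm relative to the control mean (vertical axis) against the mean of 12 endothelial markers on the same scale (horizontal axis), 1 panel a gene and 1 point a library, with the replicate number as the marker shape and a dashed line of equal values. Tie1 lies near the line in the cKO libraries, Tek lies below it in all 4 cKO libraries, and Ptprm lies above it in all 4 cKO libraries. Ptprb and Ptprm were picked for their difference in these libraries.

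The rest of the pathway showed few changes. Of 24 adaptors and effectors downstream of Tek, such as Grb2, Ptpn11, Akt1 and Foxo1, none passed in either direction by edgeR or limma-voom. At an unadjusted edgeR p under 0.05 there were 1 higher and 3 lower, against 3436 of the 26820 genes tested. The median log2 fold change of the 24 was 0.01, against −0.00085 over all genes. The smallest p belonged to Pik3r2, a regulatory subunit of phosphoinositide 3-kinase, at 37.6 ± 0.475 CPM in cKO and 43.9 ± 0.996 CPM in control, a log2 difference of −0.22 (edgeR adjusted p = 0.0703), and DESeq2 called it as lower, the 1 call it made in the list. Foxo1, the transcription factor that Tek signalling holds inactive, was at 45.4 ± 4.58 and 43.6 ± 2.86 CPM.

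The other ligands, the integrins and the angiopoietin-like genes held no call by edgeR, DESeq2 or limma-voom, with 1, 2 and 0 genes at an unadjusted edgeR p under 0.05. Angpt4, an angiopoietin of low abundance here (9 to 34 counts per library), had a log2 difference of 0.72 (edgeR adjusted p = 0.453), and Svep1, an extracellular matrix protein that binds Tie1, had −0.34 (adjusted p = 0.225). Of 4 integrin chains that take part in angiopoietin signalling, none passed, all 4 lay above 0 with a median of 0.16, and Itgb3 had the smallest p (log2 difference 0.73, edgeR adjusted p = 0.154). Itgb3 is also a platelet integrin, and the 5 megakaryocyte markers summed to 33.7 to 109.8 CPM in cKO against 20.5 to 51.5 CPM in control libraries. Whether platelet RNA had a part in the Itgb3 values was not tested. Of 6 angiopoietin-like genes, none passed, with a median of −0.13 and the smallest p for Angptl4 (log2 difference 0.25, edgeR adjusted p = 0.565).

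Partners of the phosphatases at the junction were mixed. Of 7, Cdh5 and Fgd5, an exchange factor of endothelial cells, passed as higher, against 0.515% of all genes tested. Fgd5 had a log2 fold change of 0.42 (edgeR adjusted p = 0.0453). Both calls were kept without cKO replicate 2 or 3 and lost without any other 1 library and in the limma fits of TPM, and that of Fgd5 also with limma-voom (adjusted p = 0.0727) and filterByExpr (0.0534). The median of the list was 0.08, and the catenin genes and Jup lay near 0, from 0.06 to 0.08. Cdh2, the cadherin of cardiomyocyte junctions, averaged 289.8 ± 5.21 CPM in cKO and 330.5 ± 21.3 CPM in control (edgeR adjusted p = 0.139). DESeq2 called 3 of the 7 as higher and 1, Cdh2, as lower, where it called 867 genes in either direction over the whole table. Cdh5 and Kdr are also among the endothelial markers above, so the Cdh5 call is the same one in both lists.

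Ptprb and Ptprm were set beside the other receptor phosphatases, 18 genes of which 16 passed the filter on low counts. Ptprn alone of the 16 passed edgeR's test, as higher, against 0.515% of all genes tested. DESeq2 called 3 as higher, where it called 867 genes in either direction over the whole table. The groups did not overlap for 4 of the 16 with cKO on top and for 1 with cKO below, against 3.14% and 3.77% of all genes tested. Ptprn was at 5.23 ± 1.47 CPM in cKO libraries against 2.48 ± 0.665 CPM in controls (SD, n = 4), a log2 fold change of 1.08 with a standard error of 0.22 (edgeR adjusted p = 0.0288). It did not pass without cKO replicate 1 or 4 or control replicate 1, 3 or 4 (adjusted p from 0.0649 to 0.115). The Ptprn call was also lost in the limma fits of TPM (adjusted p = 0.3095, 0.3049 and 0.149). Ptprn is known from the membranes of dense-core vesicles in neuroendocrine cells. The median log2 fold change of the 16 was 0.15. The closest relatives of Ptprb gave log2 differences of 0.18 for Ptprj and 0.49 for Ptpro, and those of Ptprm gave −0.04 for Ptprk, −0.58 for Ptpru and 0.39 for Ptprt, the last named after its values were seen. None of these passed (edgeR adjusted p from 0.231 to 0.884). By mean TPM, Ptprm stood at rank 7 of 20 receptor phosphatases in control and at rank 5 in cKO libraries, and Ptprb at rank 8 in both. The leucocyte phosphatase Ptprc, named after its values were seen, had a mean of 1.01 CPM in cKO and of 0.264 CPM in control (edgeR adjusted p = 0.128), and the 7 macrophage markers summed to 10.5 to 30.4 against 6.75 to 10.5 CPM.

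**Figure D4:**
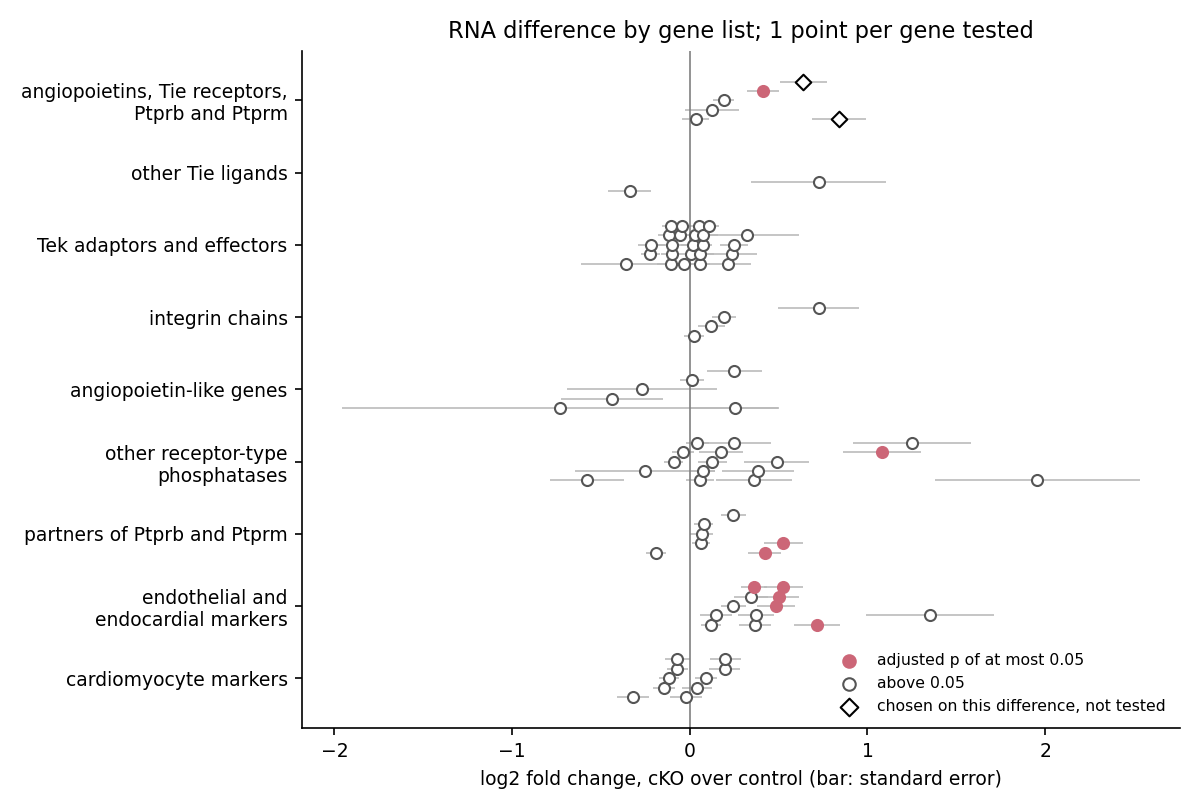
Log2 fold change, cKO against control, of each tested gene in the lists of members, other Tie ligands, downstream effectors, integrins, angiopoietin-like genes, receptor phosphatases, partners, endothelial and cardiomyocyte markers, with bars for the standard error, filled points for genes called at 0.05 (adjusted p) and diamonds for Ptprb and Ptprm, which were not tested. The 12 endothelial markers all lie above 0, and the 24 downstream effectors are centred near 0.

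The members were also compared by how they varied between libraries within a group. Over 8 libraries, each value relative to its group mean, Tie1 and Ptprm varied most alike (r = 0.86), followed by Tek and Tie1 (0.66) and Ptprb and Ptprm (0.64). Angpt1 ran against Tie1 (−0.53) and Ptprm (−0.49). Among 11244 genes with a mean of at least 5 CPM, the nearest to Tie1 were Arap3, Bmp1 and Itpr2, and those nearest to Angpt1 were Btf3l4, Smpx and Dhrs4, each with an r of 0.98. For Angpt2 they were Atg4c, Vps52 and Asb3, for Ptprb Mast4, Tanc1 and Coro7, and for Ptprm Gdpd5, Tspan18 and Stab1, with r from 0.97 to 0.99. These are the extremes of many genes over few libraries that share their RNA composition, and they are given as a description.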

How the data were processed

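Raw read counts per gene, deposited by the authors without normalization, and length-scaled abundances (TPM), computed and deposited by the authors, were used for 8 libraries. The processing notes list Trim Galore 0.6.7, HISAT2 2.2.1, StringTie 2.2.1, featureCounts, FastQC and DESeq2 without their roles, and the methods name nf-core/rnaseq and GRCm39. The TPM table places genes on GRCm38 (85.8% of 37920 genes within 1000 bases of the GRCm38 start, 3.26% of the GRCm39 start). The strand setting is not given in the sources used here.

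The test on counts was edgeR's quasi-likelihood one (version 4.0.16, R 4.3.3), with condition as the only term and TMM scaling. Genes whose counts summed to 8 or more over the libraries entered, and p was adjusted over all of them by Benjamini-Hochberg. The threshold was an adjusted p of 0.05, used alone or joined with a 1.5-fold change. Log2 CPM had a prior count of 2. Ratios were tested with two-sided exact permutation tests over libraries and adjusted over 6 tests. Intervals of a fold change used the standard error of the fit. Members, lists and tests were chosen with earlier results of these data known. Named genes were the members, list genes past the adjusted p (else the one with the smallest p), the paralogs of the phosphatases, and the 3 genes most like each member (those of Tek are not reported here). Alternatives were DESeq2 1.42.0, limma-voom and limma on log2 TPM (limma 3.58.1), other size factors and filters, a replicate block, markers left out and each library left out. The fits were tested on simulated data. Total counts of 47559845 to 56660938 per library leave counting error small for all members but Angpt2. The labels do not say whether replicate numbers pair the libraries, and the main tests treated them as unpaired. Labels name separate samples, and p-values measure the spread between these.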

Additional observations from a re-analysis of the deposited data

Results flagged for a closer look

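Of 30 sets of 4 libraries checked for a library far from the others, 2 held one, and chance alone marks about 5% of such sets. Ptprm in control replicate 3 was at 4.65 on the log2 CPM scale, whereas the next control was at 5.13 and the highest at 5.19. Without that library the log2 fold change of Ptprm was 0.73, against 0.84 with it. Angpt2 relative to the endothelial markers stood at −4.08 in cKO replicate 3, whereas the other cKO libraries lay between −4.75 and −4.67.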

How the results depend on the processing

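Of the 230 genes called over the whole table, the number moved to 867 with DESeq2, 878 with no filter, 380 with the replicate block, 1 and 5 in limma fits of log2 TPM at a pseudocount of 1 or 0.1, and 33 there with a mean TPM of at least 1. It ranged from 67 (without control replicate 1) to 744 (without cKO replicate 3) as each library was left out. With the fold threshold, 98 calls became 230 with DESeq2, 62 with limma-voom, 366 with no filter, 168 with the replicate block, 1, 4 and 14 in the TPM fits, and 31 to 296 with a library left out. Tek passed with DESeq2 only (log2 0.20). Tie1 kept its direction and lost its call with limma-voom (0.41), filterByExpr (0.42) and the TPM fits (0.42, 0.42 and 0.42), and ranged from 0.34 to 0.49 with a library left out. Angpt1 ranged from −0.026 to 0.12, turning below 0 without cKO replicate 3. Ptprk turned to 0.032, 0.033 and 0.032 in the TPM fits and ranged from −0.063 to 0.014. Tie1 relative to the markers turned to 0.033 without Cldn5. Ptprb and Ptprm stayed above 0 in the 17 alternatives run for each. Those fits reuse the libraries that chose both genes, so they add no support for the difference. Of the calls on endothelial genes, 5 became 10 with DESeq2, 3 with limma-voom and 0 in the TPM fits. The cause of these changes was not tested. Whether replicate numbers pair the libraries is not known. Values relative to the group mean correlated at −0.25, −0.04, 0.06 and −0.18 between libraries of the same number, which cannot settle it. With the replicate block Tie1 had 0.40 (edgeR adjusted p = 0.0156) and Tek 0.19 (0.220). The ratio of Angpt2 to Angpt1 and Angpt1 relative to cardiomyocyte markers turned below 0 without cKO replicates 4 and 3 (−0.024 and −0.0085). Sign flips of 4 pairs cannot reach 0.05, and ratios with a library left out were computed without a test. Few counts limit Angpt2 and Angpt4.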

Other observations

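Markers of the other cell types of the heart and of the blood were read beside the members, as values. For comparison, 3436 of the 26820 genes tested had an unadjusted edgeR p under 0.05, and edgeR and DESeq2 called 230 and 867 genes over the whole table. Of 8 smooth muscle and pericyte markers, none passed the edgeR test (2 higher and 1 lower at an unadjusted p under 0.05) or DESeq2. Their median log2 fold change was 0.097, and 5 of the 8 lay above 0. They summed to 2504 to 2961 CPM in cKO and 2745 to 3451 CPM in control libraries. Most of that sum was Acta2 alone, at 2485 ± 190 CPM in cKO and 2775 ± 332 CPM in control. The smallest p belonged to Tagln (log2 difference −0.35, edgeR adjusted p = 0.194). Of 6 epicardial markers, 5 lay below 0 and none passed in edgeR (2 at an unadjusted p under 0.05, and 2 called by DESeq2), and Aldh1a2, which makes retinoic acid, had −0.59 (edgeR adjusted p = 0.0666). Of 5 cushion mesenchyme markers none passed in edgeR or DESeq2 (0 at an unadjusted p under 0.05), with a median of 0.11 and the smallest p for Pdgfra (0.16, edgeR adjusted p = 0.393). Of 10 cardiomyocyte markers none passed in edgeR (2 higher and 2 lower at an unadjusted p under 0.05, and 1 called as lower by DESeq2), and the transcription factor Nkx2-5 had −0.32 (edgeR adjusted p = 0.109).

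The blood lineages differed more between single libraries. All 7 macrophage markers lay above 0, each at an unadjusted edgeR p under 0.05, DESeq2 called 3 of them, and C1qb, a complement component, passed (log2 fold change 2.30, edgeR adjusted p = 0.0293). Its call was lost without cKO replicate 1 or 4 or control replicate 1, 3 or 4 (adjusted p from 0.0548 to 0.125), with limma-voom (0.0857) and in the limma fits of TPM. All 5 megakaryocyte markers lay above 0 with a median of 1.03 and none passed in edgeR or DESeq2 (4 at an unadjusted p under 0.05), the smallest p being that of Itga2b (1.07, edgeR adjusted p = 0.0912). The 5 erythroid markers summed to 990.9 to 3635 CPM in cKO and 1123 to 3557 CPM in control libraries with 0 at an unadjusted p under 0.05, and Alas2 had 0.37 (edgeR adjusted p = 0.741). Of 5 hepatic markers 4 were tested, none passed in edgeR (3 at an unadjusted p under 0.05, and 1 called by DESeq2), and Ttr had −1.71 (edgeR adjusted p = 0.0820), with a summed level up to 27.3 CPM in control against 3.37 CPM in cKO libraries. Control replicate 1 carried the highest hepatic level, and without it Ttr had −1.05. Whether these shares had a part in the values of the members was not tested.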
